A study of Rattus norvegicus with 4 samples.

Results

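The lipoprotein lipases Lpl, Lipc and Lipg, the inhibitor and regulator genes Angptl4 and Angptl8, and the lipoprotein receptors Vldlr and Scarb1 were followed in rat liver. These 7 genes were chosen by name as lipases, angiopoietin-like proteins and receptors of lipoprotein metabolism, out of 14506 genes with a probe set of a single platform gene symbol. Earlier results of these data were known when the 7 were chosen. All 7 were measured, each by 1 probe set. RNA came from the liver of untreated male rats of the WNIN/Ob strain, aged 4 months and given stock diet and water freely. The obese pool held RNA of 4 animals of the obese phenotype, and the lean pool RNA of 4 animals of the lean phenotype. Each pool was hybridised to 2 Affymetrix rat gene arrays, called original and technical replicate in the labels. Each phenotype is therefore 1 sample, and the values below compare the pools without a test or a p-value. The labels give neither a fasting state nor a time of day for the liver collection.

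Triglyceride-rich lipoproteins lose their fat in capillaries, where lipoprotein lipase, anchored to the vessel wall, splits triglyceride into fatty acids that muscle and adipose tissue take up. Hepatic lipase does related work on remnants and high-density lipoprotein in the liver sinusoids, and endothelial lipase acts mainly on the phospholipids of high-density lipoprotein. Angiopoietin-like proteins restrain lipoprotein lipase according to feeding, with Angptl4 raised by fasting and Angptl8 by feeding and insulin. In the adult, Lpl and Vldlr transcripts are known mainly from muscle, heart and adipose tissue, whereas Lipc and Scarb1 are typical of liver.

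A level is the log2 of the deposited RMA intensity, and a difference is obese minus lean on that scale, with its range over the 4 pairs of an obese and a lean array. The 1.5-fold rule counted a gene with at least that fold between pool means, at least 0.25 (log2) between the closest obese and lean arrays, and a level in the higher pool of at least 5.48, the median of all genes (the level filter). The 2-fold rule used a factor of 2 with a distance of 0.5. The arrays had median log2 intensities between 4.69 and 4.79. Among all genes the 2 obese arrays differed by 1.5-fold or more in 3.34% of cases and the 2 lean arrays in 1.19%. Such gaps are measurement error and leave out the spread between animals.

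The DNA before the start of 3 of these genes is shown. Angptl8 and Vldlr, which passed the 1.5-fold rule, can so be set beside the liver lipase Lipc. The sequences are RefSeq promoters of build GRCr8, from 250 bases before to 50 bases after the start, 5′ to 3′ on the gene's strand. Of the 7 genes, 5 had an entry. Lpl, which also passed that rule, and Scarb1 had none. The Angptl8 promoter lies at chr8:28652305-28652604 (plus strand), that of Lipc at chr8:80516236-80516535 (minus strand) and that of Vldlr at chr1:234240436-234240735 (plus strand). Capitals mark the letters GTTAATNAT of the liver factor HNF1 in Angptl8 and Lipc, and the GC box GGGCGG, which in Vldlr is read on the opposite strand, so that CCGCCC is printed.
Angptl8: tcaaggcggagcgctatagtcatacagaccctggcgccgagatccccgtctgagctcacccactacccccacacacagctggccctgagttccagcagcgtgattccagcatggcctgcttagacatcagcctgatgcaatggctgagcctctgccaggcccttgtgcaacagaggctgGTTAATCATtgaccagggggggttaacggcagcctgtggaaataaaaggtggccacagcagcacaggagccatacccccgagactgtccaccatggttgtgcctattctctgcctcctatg
Lipc: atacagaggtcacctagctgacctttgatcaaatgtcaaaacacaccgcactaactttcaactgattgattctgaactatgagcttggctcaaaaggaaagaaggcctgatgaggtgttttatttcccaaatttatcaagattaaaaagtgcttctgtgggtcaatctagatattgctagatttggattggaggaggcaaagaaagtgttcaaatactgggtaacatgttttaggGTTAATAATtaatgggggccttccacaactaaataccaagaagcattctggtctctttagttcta
Vldlr: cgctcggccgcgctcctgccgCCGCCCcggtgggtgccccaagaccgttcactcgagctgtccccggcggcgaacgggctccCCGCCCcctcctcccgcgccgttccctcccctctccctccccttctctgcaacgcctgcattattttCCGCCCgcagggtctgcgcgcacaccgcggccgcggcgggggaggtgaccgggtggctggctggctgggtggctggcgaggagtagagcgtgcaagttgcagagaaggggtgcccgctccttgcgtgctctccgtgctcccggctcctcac

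The HNF1 letters began 71 bases before the start in Angptl8 and 15 bases before it in Lipc, both on the gene's strand. Searched on both strands, they occurred in 0.747% of 33469 promoters of this length, 250 in all, and in none of the windows of Lipg, Angptl4 and Vldlr. The GC box, a common motif bound by Sp1, was found 3 times in Vldlr, 1 time in Angptl4 and in 33.1% of all promoters. G and C made up 73.0% of the Vldlr window, against 58.0% in Angptl8, 38.0% in Lipc and a median of 51.7% over all promoters. The search also covered 4 further motifs on both strands. The TATA box TATAAA was found in Angptl4, and 14.2% of all promoters hold it. The E-box CACGTG was found in Lipg, with a share of 6.42%, and the nuclear receptor half-site AGGTCA in Lipc, with 16.2%. The sterol element TCACCCCAC, with a share of 0.484%, was in none of the 5 windows. None of these motifs overlapped another in the printed windows. A match of letters is a description of the sequence and does not show a bound site.

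Of the 7 genes, Angptl8 was higher in the obese pool and Lpl and Vldlr were lower, and the other 4 did not pass the 1.5-fold rule. Over all genes 2.19% were higher and 2.43% lower by the same rule. Because the 7 were chosen with earlier results known, setting them beside these shares is no test. The share of higher genes depended on the arrays, since 317 genes were higher with all arrays, 553 without the obese technical replicate array and 616 on the original arrays alone. The same 3 genes passed the 2-fold rule, which 0.572% of all genes passed as higher and 1.48% as lower. The arrays of the pools did not overlap for 6 of the 7 genes, but this was so for 46% of all genes and says little about single members. The median difference of the 7 genes was 0.10, beside 0.03 over all genes.

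**Figure D1:**
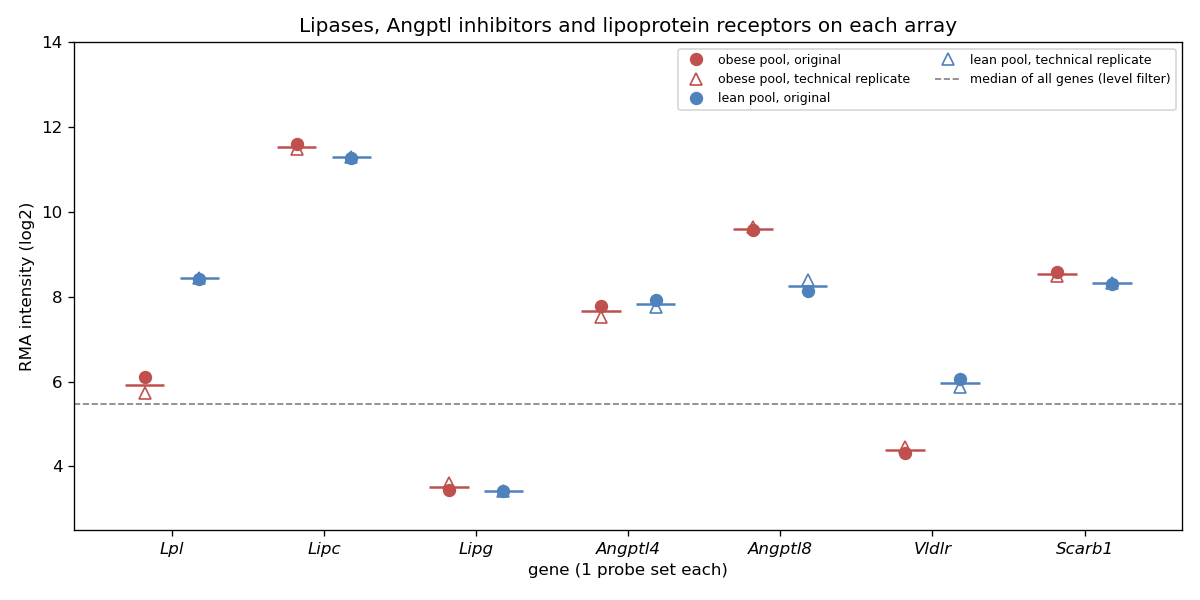
RMA intensity on the log2 scale (vertical axis) of the 7 genes on each array, with the obese pool left of the lean pool, filled circles for the original arrays, open triangles for the technical replicates and short lines for pool means. The dashed line is the median of all genes, 5.48; the obese arrays stand apart from the lean arrays in Lpl, Angptl8 and Vldlr, while levels of different genes are not comparable because each has its own probes.

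Lpl, which encodes lipoprotein lipase, was lower in the obese pool. Its intensity was 69.1 and 52.8 on the obese original and technical replicate arrays, against 342 and 350 on the lean arrays. Both obese arrays lay far under both lean arrays, and the obese arrays also differed from each other more than for any other of the 7 genes, by 0.39 on the log2 scale. The level averaged 5.92 ± 0.28 in the obese pool and 8.43 ± 0.02 in the lean pool (log2, SD of 2 arrays), a difference of -2.52 (-2.73 to -2.30). Both pools reached the level filter, so this fold of 5.72 lower in the obese pool does not rest on a level under it. By size it ranked 97th among the 215 genes lower by the 2-fold rule.

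Vldlr, the receptor that takes up very-low-density lipoprotein and related ligands, shared that direction. Its intensity was 20.1 and 21.9 on the obese arrays, against 67.1 and 58.8 on the lean arrays. The obese arrays did not overlap with the lean ones, and the lean arrays differed by 0.19 on the log2 scale. The level averaged 4.39 ± 0.09 in the obese pool and 5.97 ± 0.14 in the lean pool, a difference of -1.58 (-1.74 to -1.43). The obese level did not reach the level filter, so the 2.99-fold decrease has no firm size.

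Both decreases occurred beside lower levels of skeletal muscle transcripts in the obese pool. Of 17 measured markers of 20 listed, 17 passed the 1.5-fold rule as lower in obese, with differences from -7.07 to -3.27 and a median of -5.88. Their summed intensity was 575 and 587 on the obese arrays, against 34935 and 36387 on the lean arrays. Acta1, the actin of skeletal muscle, averaged 6.88 ± 0.02 in the obese pool and 13.10 ± 0.02 in the lean pool. No marker is at 0 on this scale, but 14 of the 17 fell short of the level filter on the obese side. The 4 markers with the largest differences were the myosin light chain Myl1 (-7.07), the myosin heavy chain Myh1 (-6.98), the troponin Tnnt3 (-6.36) and the glycogen phosphorylase Pygm (-6.32). The obese levels of all 4 fell short of that filter, which leaves the size and order of these differences uncertain. Muscle RNA is known to contain Lpl and Vldlr. The part of muscle transcripts in these decreases was not tested, nor was the source of the muscle transcripts in the lean pool. In pooled tissue RNA the number of cells of a type and the RNA per cell cannot be told apart.

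Markers of other tissues that use Lpl were mostly dim. Of 6 measured heart markers 1 passed the rule, the cardiac myosin heavy chain Myh6, at 4.78 ± 0.11 in the obese pool and 5.72 ± 0.15 in the lean pool. Its sequence is close to that of the slow muscle myosin Myh7, whose difference was -5.81, so its reading is uncertain, and the other heart markers, among them Nppa (0.04), Tnni3 (-0.01) and Tnnt2 (-0.09), lay below the level filter in both pools. The summed heart markers were 113 and 128 on the obese arrays, against 148 and 145 on the lean arrays. None of 8 measured adipocyte markers passed the rule (median -0.27). The adipocyte hormones Adipoq, at 4.21 in the obese and 4.57 in the lean pool, and Lep, at 4.20 in the obese and 4.63 in the lean pool, were below the level filter in both, as were 5 of the 8 markers in all. The summed adipocyte markers were 777 and 747 on the obese arrays, against 665 and 625 on the lean arrays, but Cidec, a lipid droplet protein that fatty liver can also express, made up 510 and 473 of the obese sums and 344 and 335 of the lean sums. Without Cidec, a choice made after seeing the data, the sums were 268 and 274 on the obese arrays, against 321 and 290 on the lean arrays, so the direction of the sum rests on that gene.

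Kupffer cells, the macrophages of the liver sinusoids, can also express Lpl. All 11 measured macrophage markers had differences below 0, from -0.41 to -0.10 with a median of -0.25, and 0 passed the 1.5-fold rule. Over all genes, 6245 of 14506 had differences below 0. The part of macrophages in the Lpl difference was not tested. The summed intensity of the macrophage markers was 3377 and 2978 on the obese arrays, against 3694 and 3885 on the lean arrays. Their median difference lay between -0.34 and -0.14 over 12 alternative processing settings. Hepatocyte markers, 12 of 12 measured, had a median difference of 0.08 and 0 past the rule, with sums of 90389 and 90133 on the obese arrays, against 83018 and 86237 on the lean arrays. All 12 reached the level filter in both pools.

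**Figure D2:**
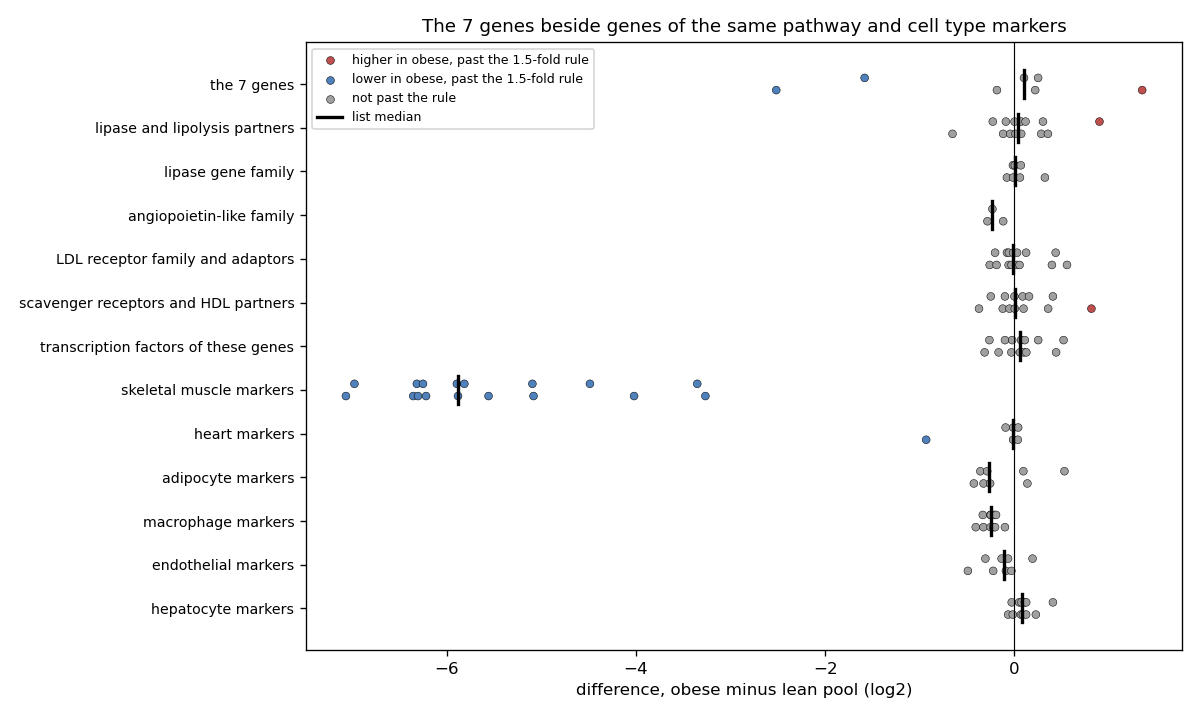
Difference between the pools (horizontal axis, obese minus lean, log2) for each measured gene of the 7 and of 12 lists, 1 point per gene, coloured by the 1.5-fold rule, with a black bar at the list median. The 17 skeletal muscle markers lie between -7.07 and -3.27, all to the left of Lpl at -2.52 and Vldlr at -1.58. The other lists centre within 0.3 of 0.

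Lipc, the hepatic lipase made by hepatocytes, was close to equal in the pools. Its intensity was 3115 and 2848 on the obese arrays, against 2485 and 2519 on the lean arrays. Both obese arrays lay above both lean arrays, by a small margin of 0.18 between the nearest ones. The level averaged 11.54 ± 0.09 in the obese pool and 11.29 ± 0.01 in the lean pool, a difference of 0.25 (0.18 to 0.33), or 1.19-fold. A difference of this size or more, in either direction, was found in 26.9% of all genes. The difference of Lpl minus that of Lipc was -2.77 (-2.91 to -2.63).

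Lipg, the endothelial lipase, was dim. Its intensity was 10.9 and 12.1 on the obese arrays, against 10.8 and 10.7 on the lean arrays. The level of 3.53 ± 0.10 in the obese pool and 3.42 ± 0.01 in the lean pool lay under the level filter in both, so no fold is read from the difference of 0.10 (0.02 to 0.18). Of 8 measured endothelial markers 0 passed the rule, with a median difference of -0.11. Kdr, the receptor for vascular endothelial growth factor, had the lowest of them at -0.49. Of the other 7 genes of the lipase family 0 passed the rule, and only the lysosomal lipase Lipa reached the level filter, at 10.46 in the obese pool and 10.48 in the lean pool.

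Angptl8, also known as betatrophin and a partner in the inhibition of lipoprotein lipase after feeding, was higher in the obese pool. Its intensity was 762 and 803 on the obese arrays, against 280 and 335 on the lean arrays. All obese values exceeded all lean values, and the lean arrays differed by 0.26 on the log2 scale. The level averaged 9.61 ± 0.05 in the obese pool and 8.26 ± 0.18 in the lean pool, a difference of 1.35 (1.18 to 1.52), or 2.55-fold. By size this ranked 43rd of the 83 genes higher by the 2-fold rule, and both pools reached the level filter. No muscle marker was higher in the obese pool, and the hepatocyte markers had the median of 0.08 given above. These values are given for comparison only, and the part of cell types in the Angptl8 difference was not tested.

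Angptl4, the fasting-induced inhibitor that unfolds lipoprotein lipase, did not share this. Its intensity was 220 and 184 on the obese arrays, against 243 and 216 on the lean arrays. The arrays of the pools overlapped, the only case among the 7 genes. The level averaged 7.66 ± 0.18 in the obese pool and 7.84 ± 0.12 in the lean pool, a difference of -0.18 (-0.40 to 0.03). The difference of Angptl8 exceeded that of Angptl4 by 1.54 on the log2 scale (1.15 to 1.92 over the pairs of arrays). Of the other angiopoietin-like genes 3 were measured and 0 passed the rule, with differences of -0.28 for Angptl1, -0.23 for Angptl2 and -0.12 for Angptl6.

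Scarb1, the scavenger receptor that takes cholesteryl ester from high-density lipoprotein, was nearly equal. Its intensity was 381 and 362 on the obese arrays, against 317 and 320 on the lean arrays. The obese arrays lay above the lean ones by a narrow gap of 0.18 on the log2 scale. The level averaged 8.54 ± 0.05 in the obese pool and 8.32 ± 0.01 in the lean pool, a difference of 0.22 (0.18 to 0.27), or 1.17-fold. In 31.9% of all genes the difference was larger in size.

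**Figure D3:**
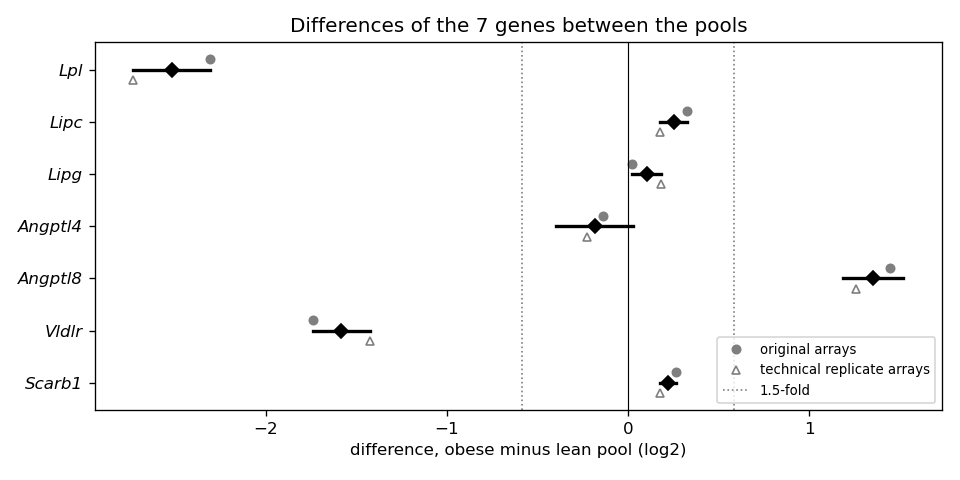
Difference between the pools (horizontal axis, obese minus lean, log2) of the 7 genes, with diamonds for pool means, bars for the range over the 4 pairs of arrays, and grey symbols for the original arrays alone and the technical replicates alone. Lpl and Vldlr lie left of the dotted 1.5-fold line and Angptl8 right of it; only the bar of Angptl4 crosses 0.

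The genes that act with these 7 passed the rule in numbers too small to set apart from the shares over all genes. Over 6 lists of partners, family members and transcription factors, 66 genes were measured, of which 2 were higher and 0 lower by the 1.5-fold rule (2.19% and 2.43% over all genes), and the median difference was 0.00. Of these 66, 16 reached the level filter in neither pool and could not have passed. Among 14 measured partners of the lipases, Sdc1, the heparan sulphate proteoglycan syndecan-1 that binds remnant lipoproteins on hepatocytes, was the gene past the rule. It stood at 9.14 and 9.12 on the obese arrays, against 8.23 and 8.22 on the lean arrays, a difference of 0.90 (0.89 to 0.91). The obese arrays were clearly above the lean arrays, which nearly coincided with each other.

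Of the other partners of lipoprotein lipase none passed the rule. The activator Apoc2 differed by 0.07, the inhibitor Apoc3 by 0.07, Apoa5, which helps lipolysis, by -0.04, and Furin, a protease that cleaves lipases and angiopoietin-like proteins, by -0.23. Gpihbp1, the capillary anchor of lipoprotein lipase, was named after its value was seen. It stood at 4.64 and 4.86 on the obese arrays, against 5.41 and 5.40 on the lean arrays, a difference of -0.65 (-0.77 to -0.54). The arrays of the pools did not overlap, and it missed the rule because neither pool reached the level filter; without that filter it counts as lower.

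The families of the receptors held 1 further gene past the rule. Of 15 measured genes of the low-density lipoprotein receptor family and its adaptors 0 passed, with a median difference of -0.01. Lrp1, the hepatic remnant receptor, had -0.19, and Mylip, whose product marks Vldlr for degradation, had -0.26. Mylip lay below the level filter in both pools, at 4.57 in the obese and 4.83 in the lean pool. Of 13 measured scavenger receptors and partners of high-density lipoprotein, Cd36, a fatty acid and lipoprotein receptor, was higher. It stood at 9.89 and 9.60 on the obese arrays, against 8.86 and 9.00 on the lean arrays, a difference of 0.82 (0.60 to 1.03). A second probe set of Cd36 gave 0.71. Pdzk1, the scaffold that holds the Scarb1 protein at the hepatocyte surface, differed by 0.16, and the cholesterol exporter Abca1 by 0.00.

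Of 14 measured transcription factors that are known to act on these genes 0 passed the rule, with a median difference of 0.07. Ppara, which drives Angptl4 in fasting, had -0.31 (-0.35 to -0.27), and Pparg, which drives Lpl in adipocytes, was below the level filter in both pools at 4.46 in the obese and 4.72 in the lean pool. Nr1h3, the liver X receptor alpha that induces lipogenic genes, had 0.52 (0.46 to 0.58). Mlxipl, the carbohydrate response factor, had 0.10 and Hnf4a 0.11.

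The genes whose values over the 4 arrays most resembled those of the 3 called genes were found by the root mean square distance after centring each gene on its mean. With only 2 pools the measure mainly reflects the size of the difference, and 7551 named genes that reached the level filter were searched. Nearest to Lpl were Lmod2, a leiomodin of muscle thin filaments (distance 0.11, difference -2.64), the pyruvate kinase Pkm (0.11, -2.54) and the actin-binding Cap2 (0.12, -2.53). Nearest to Vldlr were Trim35 (0.05, -1.53), Trim54 (0.07, -1.67) and the mitochondrial isocitrate dehydrogenase Idh2 (0.08, -1.54). Nearest to Angptl8 were the zinc transporter Slc39a4 (0.08, 1.46), the phosphate transporter Slc34a2 (0.08, 1.33) and Acly, which makes cytosolic acetyl-CoA for fatty acid synthesis (0.10, 1.40).

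The 3 differences kept their side of the 1.5-fold rule under every one of the 12 settings tried. Among these settings, the mean of probe sets could not alter a difference, since each gene has a single probe set. Nor could dropping the level filter, which acts on the call alone. The difference of Lpl ranged from -2.73 to -2.24, that of Vldlr from -1.74 to -1.09 and that of Angptl8 from 1.22 to 1.48. The smallest sizes of Lpl and Vldlr came with an offset of 16 added to the intensities, which shrinks differences of dim genes. No setting brought any of the other 4 genes past the rule, and their differences kept their signs, from 0.18 to 0.33 for Lipc, 0.02 to 0.18 for Lipg, -0.31 to -0.06 for Angptl4 and 0.13 to 0.27 for Scarb1.

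**Figure D4:**
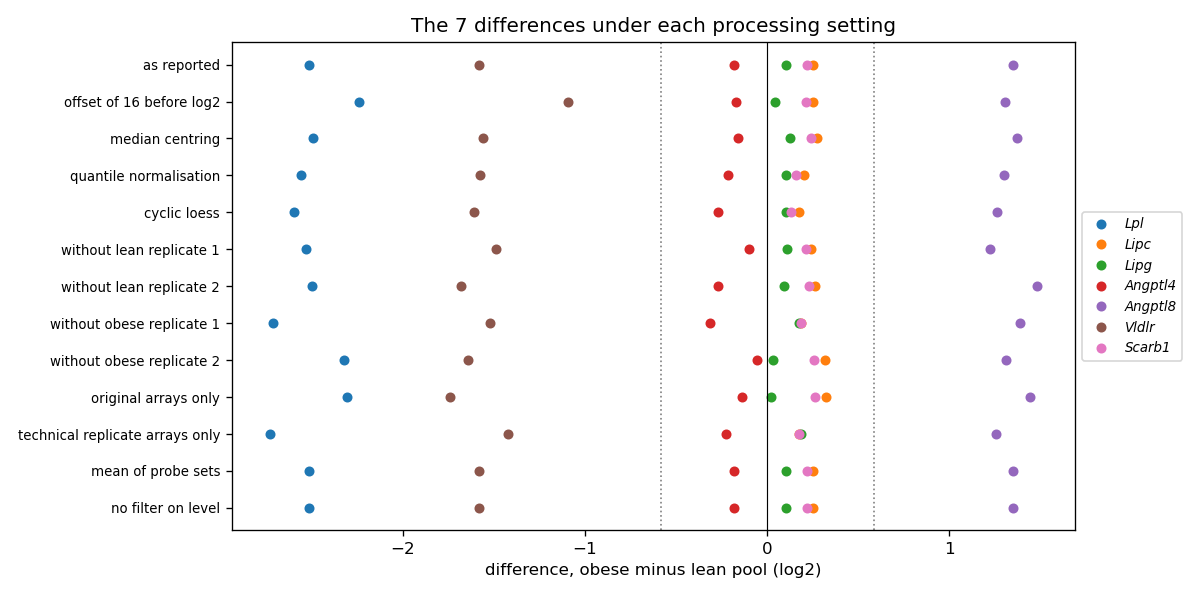
Difference between the pools (horizontal axis, obese minus lean, log2) of the 7 genes under the reported processing (top) and each of the 12 alternatives, 1 coloured point per gene, with dotted lines at 1.5-fold. Lpl and Vldlr stay left of the lower line, Angptl8 right of the upper one, and the other 4 genes between the lines.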

How the data were processed

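The deposited values are intensities for each probe set and array. The authors made them with RMA, according to the submitters' processing notes. The values are linear although RMA normally gives log2 values, and that step, the version and the build are not given in the sources used here. RMA was applied by the authors to all arrays, and it pulls in very dim and very bright values. Here log2 was taken of each deposited intensity, with no further normalisation. Of 29214 probe sets, 15310 had 1 gene symbol and 323 several; the latter named no gene. Of a gene's probe sets the one with the highest mean was used. Arrays of a pool were averaged and counted as 1 sample, without p-values. The number of arrays limits the precision. The 7 genes and all lists were chosen with earlier results of these data known. Named genes are the 7 members, list genes past the 1.5-fold rule (at most 4 a list, by size) and 3 nearest genes of each called member; other genes named were chosen after their values were seen. Python 3.11.15, pandas 2.3.3, R 4.3.3 and limma 3.58.1 were used. The 1.5-fold rule was also run on simulated data, with shifts planted only in genes above the median level and noise taken from the lean arrays. That run covers neither shifts of dim genes nor the spread between animals. It also leaves out the larger noise of the obese arrays. The log2 difference between the 2 obese arrays had an SD of 0.27, against 0.20 for the lean arrays.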

Additional observations from a re-analysis of the deposited data

How the results depend on the processing

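The 12 settings were an offset of 16, median centring, quantile normalisation, cyclic loess, each array left out in turn, the original or the technical replicate arrays alone, the mean of a gene's probe sets, and no level filter. The counts of the 7 genes past the 1.5-fold rule were 1 higher and 2 lower under all 12. The mean of probe sets and the missing level filter could not change a difference of these 7 genes, each with 1 probe set. Of the genes in the 6 pathway lists 2 to 3 were higher, and 0 were lower except without the level filter, where 1 was, since Gpihbp1 then counts. The 17 muscle markers were lower in all 12. Over all genes the rule counted 317 as higher and 352 as lower, and after cyclic loess 227 and 400. Leaving out the obese technical replicate array gave 553 higher genes, the original arrays alone gave 616, and leaving out the obese original array gave 259. The cause was not tested. The median of the lipase and lipolysis partners ranged from -0.03 to 0.07 and that of the lipase family from -0.16 to 0.17. No paired analysis was possible because the labels give no replicate numbers and each phenotype is 1 pool. Signal over background is not known for any gene, which limits Vldlr and Lipg most.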

Other observations

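Some genes of the lists came near the 1.5-fold rule and were named after their values were seen. Lrp11, a member of the low-density lipoprotein receptor family, had a difference of 0.56 (0.53 to 0.59), with levels of 7.20 in the obese pool and 6.65 in the lean pool. The oxygen-sensing factor Hif1a had 0.44 (0.32 to 0.56), and Lcat, which esterifies cholesterol in plasma, 0.36 (0.34 to 0.37). Apoa1, which forms high-density lipoprotein, had 0.41 (0.38 to 0.44). Cidec had 0.53 (0.46 to 0.60), the highest of the adipocyte list.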
